A study of Mus musculus with 6 samples.

Results

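The 10 genes followed here are active in germ cells past the early primordial stage: Ddx4, Stk31, Gtsf1, Tex19.1, Stra8, Taf7l, Brdt, Tex14, Tex101 and Slc25a31. They were chosen by name, with older symbols of the same RefSeq transcript accepted, and all 10 genes were found, on 13 of the 41174 probes of the array. Tex19.1 stood on the array as Tex19 and Gtsf1 as 1700006H03Rik. All 13 probes were well above background on all 6 arrays, so no member was lost to the filter on dim probes that left 20233 genes for testing.

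RNA came from male mouse primordial germ cells of a mixed C57BL/6 and 129SV strain. They were differentiated in culture from Oct4-GFP embryonic stem cells, in which the Oct4 (Pou5f1) reporter marks cells that keep or regain Oct4 activity. Feeder cells had been depleted by plating before differentiation, and cells positive for GFP and for the tdTomato of the vector were sorted by flow cytometry. The groups were Dazl knockdown at day 12 (hairpin 1 and hairpin 2, 1 array each), control vector at day 12 (1 array), Dazl knockdown at day 9 (hairpin 1 and hairpin 2, 1 array each) and control vector at day 9 (1 array). Every group shared the Oct4-GFP reporter and a tdTomato vector, so there was no group without a vector. Levels are log2 signals after the 75th percentile of each array was set to 0, so that 0 is that percentile and each unit is a doubling. A level of 1 gene is not set against that of another, because probes differ in brightness.

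Primordial germ cells are the embryonic founders of sperm and eggs, and Dazl is an RNA-binding protein that they need to take up germ cell fate in the gonad. Once there, germ cells switch on genes whose promoters were methylated before, among them genes for retrotransposon defence, for germ granules and for meiosis. Stra8 is the classical target of retinoic acid at the entry into meiosis, and Ddx4 (mouse vasa homologue) is a helicase used as a marker of germ cells that have reached the gonad.

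The labels were checked on Dazl itself, whose signal in the knockdown arrays was 3.54% (hairpin 1) and 4.66% (hairpin 2) of the control at day 12, and 4.84% (hairpin 1) and 8.26% (hairpin 2) of the control at day 9. Its fitted log2 difference was -4.30 ± 0.28 (SE, 4 knockdown against 2 control arrays), with limma's adjusted p = 0.0876, and 0.0117 when the vector was a fixed block. In a limma fit of all 30212 kept probes, this probe had adjusted p = 0.0566. A second Dazl probe in that fit differed by -4.72 ± 0.17 (adjusted p = 0.00499). The 6 arrays had 70.3% to 73.3% of probes well above background, 75th percentile signals of 629 to 746.75 and 0 saturated probes. Of the 9 primordial germ cell markers listed, 8 were tested, all well above background on 6 arrays. Their summed level, in multiples of the 75th percentile, was 638 to 760 on the knockdown arrays and 548 to 717 on the control arrays, of which Dppa5a alone made up 91.0% to 93.9%. The list's median knockdown difference was -0.07, with 5 of 8 lower and 3 higher. Dppa3 (-0.62 ± 0.28) and Prdm1 (-0.26 ± 0.20) were lower in all 4 pairs, and Ifitm3 (0.49 ± 0.17) was higher in all 4. Dppa3, Prdm1 and Ifitm3 did not pass the test. Each day had 1 slide and 1 scan of its own, and each vector 1 position on the slide. Day therefore cannot be told apart from slide, nor vector from position. Nothing in the labels gives the arrays separate cultures, so the spread behind every p-value may hold no variation between cultures. Where the hairpins are pooled, that spread holds the differences between hairpin 1 and hairpin 2 arrays, and the rest may be technical.

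The promoters of 7 members are printed because they hold, in the 140 bases before the annotated start, at least 1 of 3 motifs of regulators with known roles at germ cell genes. The motifs are CACGTG (the E-box bound by MYC and MAX family proteins), GCGGGAA or its complement TTCCCGC (an E2F site of the kind bound by E2F6) and AGGTCA (the nuclear receptor hexamer, searched on both strands). Sequences are from RefSeq on GRCm38.p6, written 5′ to 3′ on the strand of the gene and ending 1 base before its start, and capitals mark the motifs.
Ddx4 (chr13:112652311-112652450, minus strand): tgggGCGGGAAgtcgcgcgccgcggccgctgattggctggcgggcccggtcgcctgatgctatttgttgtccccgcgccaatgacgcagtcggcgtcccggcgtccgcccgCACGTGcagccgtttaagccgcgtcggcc
Stk31 (chr6:49395399-49395538, plus strand): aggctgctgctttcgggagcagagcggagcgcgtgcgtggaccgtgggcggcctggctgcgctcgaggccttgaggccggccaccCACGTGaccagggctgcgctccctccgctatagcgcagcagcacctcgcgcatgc
Stra8 (chr6:34920808-34920947, plus strand): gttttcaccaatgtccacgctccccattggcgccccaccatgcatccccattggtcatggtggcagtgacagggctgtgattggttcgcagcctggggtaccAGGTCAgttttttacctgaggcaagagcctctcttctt
Taf7l (chrX:134476491-134476630, minus strand): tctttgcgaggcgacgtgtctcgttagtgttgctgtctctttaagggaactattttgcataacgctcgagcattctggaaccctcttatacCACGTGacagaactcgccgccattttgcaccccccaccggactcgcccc
Brdt (chr5:107331054-107331193, plus strand): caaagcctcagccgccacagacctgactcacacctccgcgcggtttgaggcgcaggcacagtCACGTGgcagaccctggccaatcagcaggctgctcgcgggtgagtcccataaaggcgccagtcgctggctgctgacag
Tex14 (chr11:87404925-87405064, plus strand): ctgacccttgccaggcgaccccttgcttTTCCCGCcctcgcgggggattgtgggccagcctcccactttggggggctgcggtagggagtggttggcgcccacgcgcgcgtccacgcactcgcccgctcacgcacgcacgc
Slc25a31 (chr3:40708731-40708870, plus strand): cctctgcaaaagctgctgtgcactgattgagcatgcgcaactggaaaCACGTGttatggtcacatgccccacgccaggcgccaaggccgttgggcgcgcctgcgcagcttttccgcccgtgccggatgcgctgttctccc

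Within the 300 bases searched (250 before and 50 after the start), CACGTG was found in 5 of the 10 members, against 7.15% of all 32851 promoters in the table and 10.9% of the 12822 tested genes with a promoter. It lay 29 bases before the start in Ddx4, 55 in Stk31 (120 from its second annotated start), 49 in Taf7l, 78 in Brdt and 93 in Slc25a31. The E2F motif was found in 3 members, against 4.60% of all promoters and 8.73% of those of tested genes: 136 bases before the start of Ddx4, 112 before that of Tex14 and 20 bases after that of Slc25a31. AGGTCA was found in Stra8 alone among the members, at 38 and 194 bases before the start, and is common: 16.3% of all promoters hold it. CpG dinucleotides numbered 10 to 38 per promoter (median 19.5), close to the median of 20 for tested genes. Matches of different motifs did not overlap. Tex19.1 (gene at chr11:121146143-121148314), Tex101 (gene at chr7:24668012-24672050) and Gtsf1 (gene at chr15:103402458-103430445) had no match in the 300 bases searched. This says only that these letters are not in that stretch around the start, and the rest of each gene was not searched. Members with CACGTG had a median knockdown difference of -0.61 (range -1.34 to -0.32) and those without it -0.50 (range -0.75 to -0.27), which overlap widely.

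**Figure D1:**
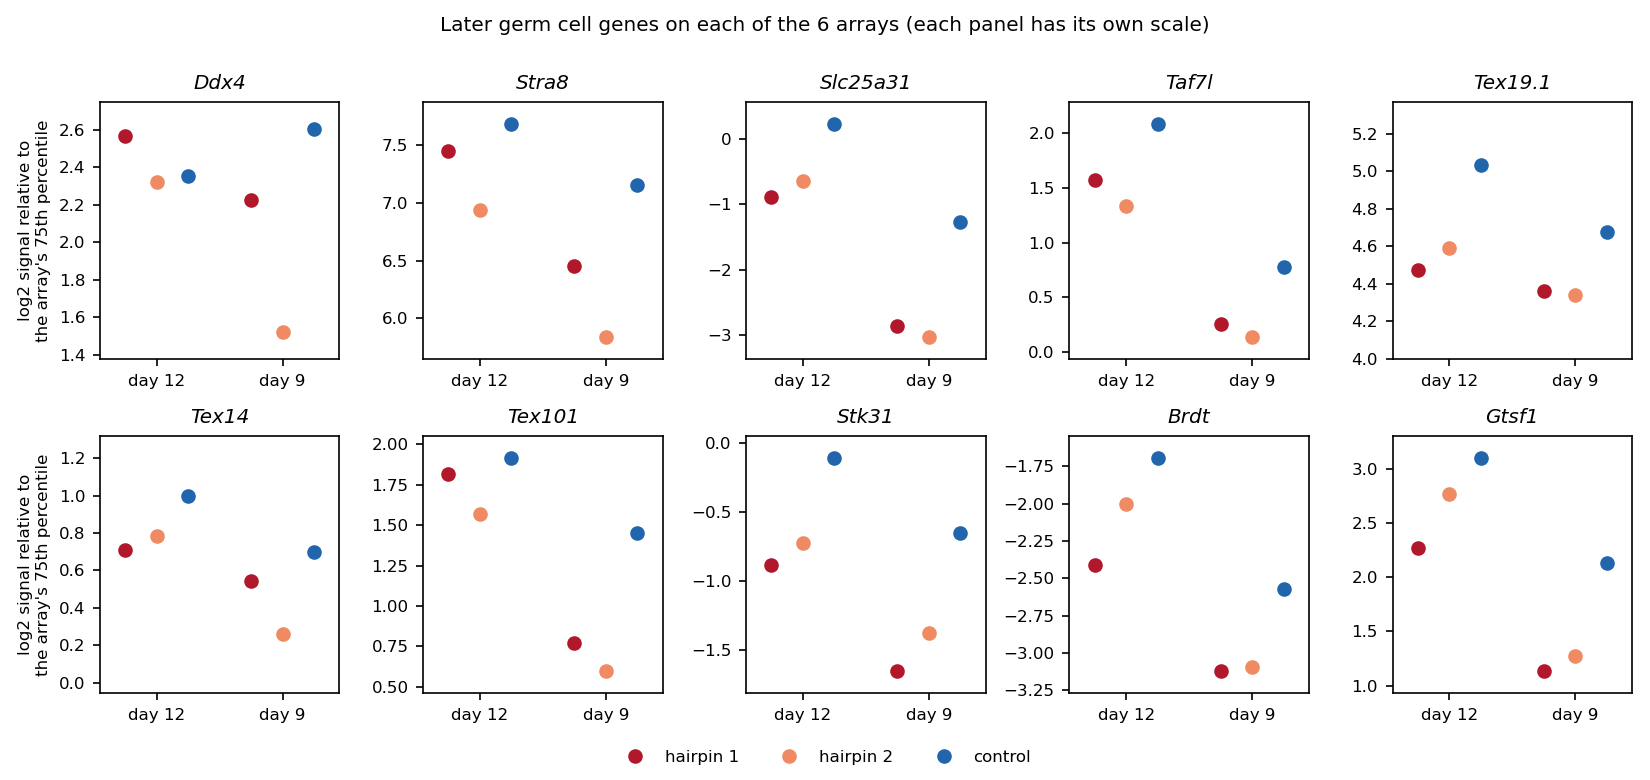
Level of each of the 10 genes on each of the 6 arrays, as log2 signal relative to the 75th percentile of the array, with day 12 left of day 9 and hairpin 1, hairpin 2 and control within each day; each panel has its own scale. For Ddx4 the day 12 hairpin 1 point, at 2.56, lies above its control at 2.35, while for the other 9 genes both hairpin points of a day lie under the control point.

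The first 4 members act with RNA in germ granules or in the defence against retrotransposons. Ddx4, an ATP-dependent RNA helicase of germ granules, stood at 2.56 (hairpin 1) and 2.32 (hairpin 2) at day 12, against 2.35 in control, and at 2.23 (hairpin 1) and 1.52 (hairpin 2) at day 9, against 2.61 in control. At day 12 the pairs differed by 0.21 (hairpin 1) and -0.03 (hairpin 2), and only at day 9 were both hairpin arrays below the control. Over both days its difference was -0.32 ± 0.28 (adjusted p = 0.751), within the spread between arrays. Stk31, a Tudor-domain protein with a kinase-like region, was at -0.88 (hairpin 1) and -0.72 (hairpin 2) at day 12, against -0.11 in control, and at -1.65 (hairpin 1) and -1.37 (hairpin 2) at day 9, against -0.65 in control. Both hairpin arrays were below the control on both days, by -0.78 ± 0.15 overall (adjusted p = 0.246). Gtsf1, a zinc-finger partner of PIWI proteins in mouse, read 2.27 (hairpin 1) and 2.77 (hairpin 2) at day 12, against 3.10 in control, and 1.13 (hairpin 1) and 1.27 (hairpin 2) at day 9, against 2.13 in control. Its signal was thus 59.4% of the control level over both days (log2 difference -0.75 ± 0.19, adjusted p = 0.35). Tex19.1, a mammalian protein that restrains retrotransposons in mouse germ cells, was at 4.47 (hairpin 1) and 4.59 (hairpin 2) at day 12, against 5.03 in control, and at 4.36 (hairpin 1) and 4.34 (hairpin 2) at day 9, against 4.68 in control. Tex19.1 was lower than the control of the same day in all 4 pairs, as 17.2% of all genes were, with a small difference of -0.41 ± 0.13 (adjusted p = 0.419).

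Stra8, which is required for germ cells to enter meiosis in mouse, was at 7.45 (hairpin 1) and 6.94 (hairpin 2) at day 12, against 7.68 in control, and at 6.45 (hairpin 1) and 5.84 (hairpin 2) at day 9, against 7.16 in control. Hairpin 2 gave the lower value on each day, and day 12 hairpin 1 lay above the day 9 control. The knockdown difference was -0.75 ± 0.26 (59.5% of control, adjusted p = 0.445), and hairpin 2 minus hairpin 1 was -0.56 ± 0.20 (adjusted p = 0.388).

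Taf7l and Brdt regulate transcription or chromatin in later germ cells. Taf7l, an X-linked relative of the TFIID subunit Taf7, read 1.57 (hairpin 1) and 1.34 (hairpin 2) at day 12, against 2.09 in control, and 0.26 (hairpin 1) and 0.14 (hairpin 2) at day 9, against 0.78 in control. Its 4 pairs lay close together, between -0.75 and -0.51, with a fitted difference of -0.61 ± 0.14 (adjusted p = 0.307). Brdt, the testis member of the BET bromodomain family that binds acetylated histones, was at -2.41 (hairpin 1) and -2.00 (hairpin 2) at day 12, against -1.70 in control, and at -3.12 (hairpin 1) and -3.09 (hairpin 2) at day 9, against -2.57 in control. The difference was -0.52 ± 0.16 (adjusted p = 0.404), and -0.27 with normexp background correction (adjusted p = 0.787).

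The last 3 members serve the structure, surface or energy supply of the cell. Slc25a31, a germ cell ADP/ATP carrier of the mitochondrial inner membrane, was at -0.89 (hairpin 1) and -0.63 (hairpin 2) at day 12, against 0.24 in control, and at -2.86 (hairpin 1) and -3.03 (hairpin 2) at day 9, against -1.27 in control. It had the widest difference among the members, -1.34 ± 0.20 (39.6% of control, adjusted p = 0.182), and -0.90 with normexp background correction (adjusted p = 0.473). Tex14, a protein of the intercellular bridges between dividing germ cells, read 0.71 (hairpin 1) and 0.79 (hairpin 2) at day 12, against 1.0 in control, and 0.54 (hairpin 1) and 0.26 (hairpin 2) at day 9, against 0.70 in control. Its difference was -0.27 ± 0.15 (adjusted p = 0.601), the smallest in size. Tex101, a glycoprotein of the germ cell surface, was at 1.82 (hairpin 1) and 1.57 (hairpin 2) at day 12, against 1.92 in control, and at 0.77 (hairpin 1) and 0.60 (hairpin 2) at day 9, against 1.45 in control. The difference was -0.50 ± 0.18 (adjusted p = 0.461), with pairs at -0.10 (hairpin 1) and -0.35 (hairpin 2) at day 12 and at -0.68 (hairpin 1) and -0.85 (hairpin 2) at day 9.

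**Figure D2:**
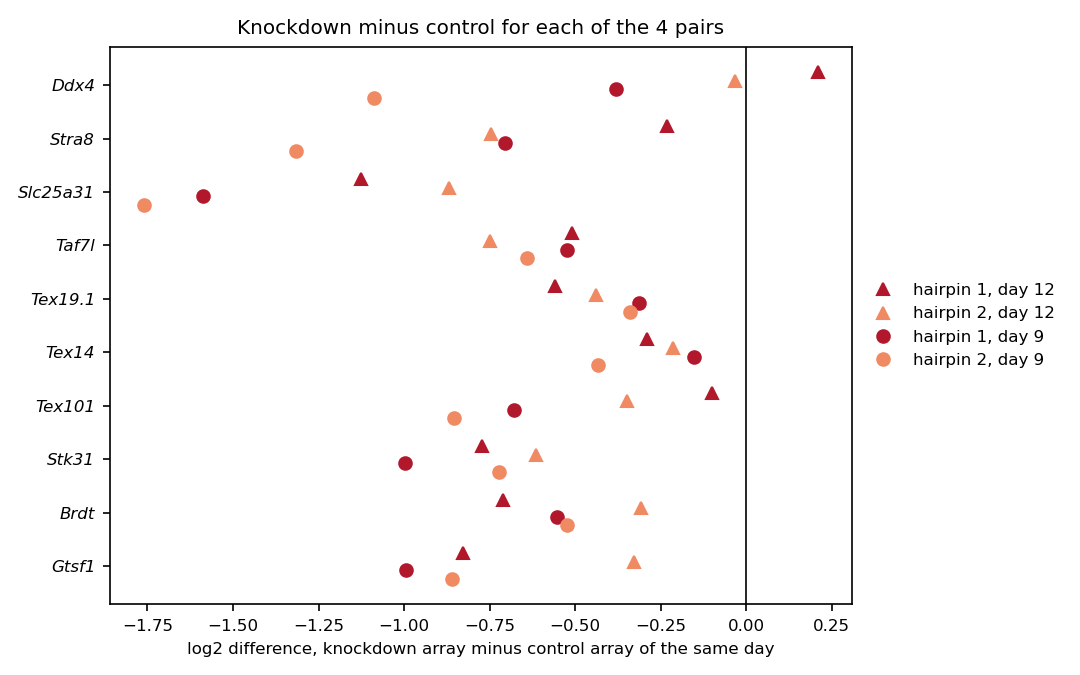
Knockdown minus control of the same day for each gene, in log2 units, with 1 point for each of the 4 pairs (triangles day 12, circles day 9; dark red hairpin 1, orange hairpin 2). Only the day 12 hairpin 1 point of Ddx4, at 0.21, lies right of 0, and the points of Slc25a31 reach furthest left, to -1.76.

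Over both days, limma called 0 of the 10 members, and 0 of 20233 genes (0% background), at an adjusted p under 0.05. At an unadjusted p under 0.05, 8 of the 10 members were lower, against 4.88% of all genes, and all 10 fitted differences were below 0, against 50.5% of all genes. The direction was shared by the pairs: 9 of 10 members were lower than control in all 4 pairs, which 17.2% of all genes were, and the exception was Ddx4. With normexp background correction it was 8 of 10, Brdt being the other exception. The 4 pairs share the 2 control arrays, so a high control array alone moves both of its pairs. The median difference of the members was -0.57, while that of all genes was -0.003. By pair, the members' median was -0.53 (hairpin 1) and -0.39 (hairpin 2) at day 12, and -0.62 (hairpin 1) and -0.79 (hairpin 2) at day 9. In RNA from a sorted population, fewer cells of a type and less RNA per cell cannot be told apart.

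Both hairpin arrays were below the control array in 9 of 10 members at day 12 (36.1% of all genes) and in 10 of 10 at day 9 (33.2% of all genes). The fit by day called 0 members at day 12 (0.00494% of genes called, the single gene being Scai) and 0 members at day 9 (0.00494% called, the single gene being Ube2dnl2), both genes being named after their values were seen. At an unadjusted p under 0.05, 3 members were lower at day 12, against 2.18% of all genes, and 5 at day 9, against 2.39%. With the vector as a fixed block, which leaves 1 residual degree of freedom, Slc25a31 was called at day 9 (-1.68 ± 0.30, adjusted p = 0.0042), where 1.43% of all genes were called. The effect at day 12 minus that at day 9 had a median of 0.26 over the members and was widest for Ddx4, at 0.82 ± 0.51, with 0 members and 0% of genes called, so the days were not shown to differ. Hairpin 2 minus hairpin 1 had a median of -0.03 over the members, with 0 members and 0.00988% of genes called (Aqp8 and Cd5, named after their values were seen).

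Between day 12 and day 9, 1 of the 10 members passed the test. Slc25a31 rose by 1.96 ± 0.19 on the log2 scale (3.88-fold, adjusted p = 0.041), against 0.148% of all genes called in this contrast. The call did not hold when any 1 of the 6 arrays was left out, where the difference was 1.82 to 2.18. Over all alternative settings the Slc25a31 day difference was 1.32 to 2.18. Taf7l differed by 1.27 ± 0.13 (2.42-fold, adjusted p = 0.055), and passed with the vector as a random block (adjusted p = 0.0400) and as a fixed block (adjusted p = 0.0163). Gtsf1 differed by 1.205 ± 0.18 (2.30-fold, adjusted p = 0.10) and passed with the fixed block (adjusted p = 0.0343). The random block called 0.178% of all genes and the fixed block 1.59%. Stra8 was 1.83-fold (log2 0.87 ± 0.25, adjusted p = 0.249) and Brdt 1.85-fold (log2 0.89 ± 0.15, adjusted p = 0.111) of the day 9 level. With normexp background correction the Brdt day difference was 0.38. Ddx4 differed by 0.30 ± 0.27 (adjusted p = 0.721), with the control array lower at day 12 than at day 9 and both hairpin arrays higher.

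**Figure D3:**
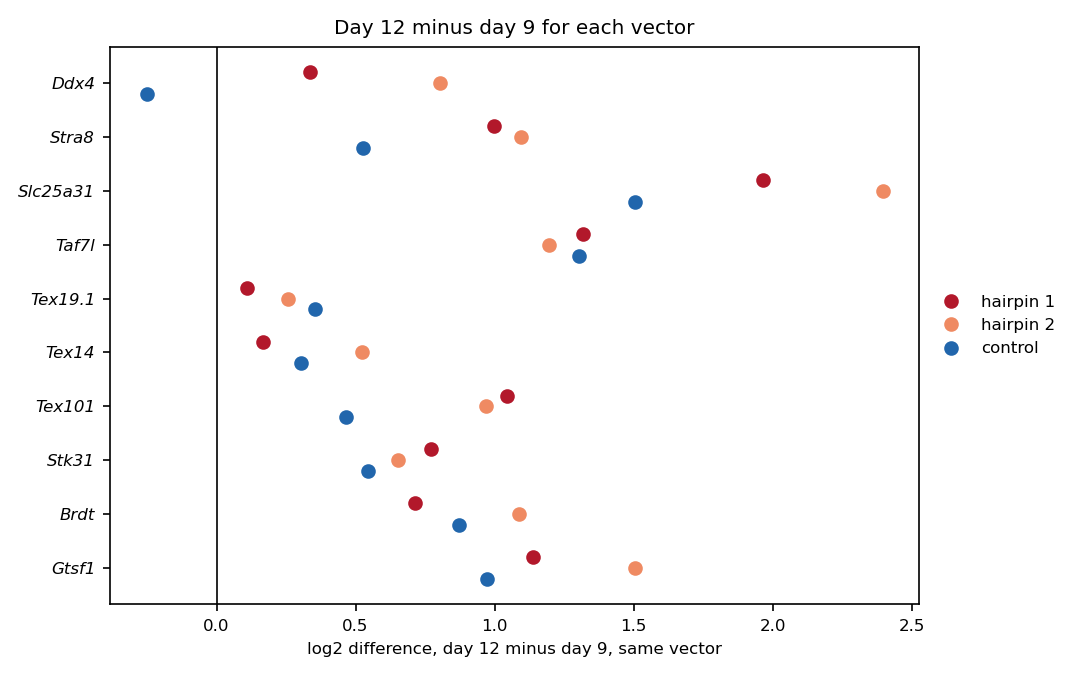
Day 12 minus day 9 for each gene within each vector, in log2 units (dark red hairpin 1, orange hairpin 2, blue control). Every point lies right of 0 except the control point of Ddx4, at -0.25, and the points of Slc25a31 reach furthest right, to 2.396.

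Within vectors, 9 of 10 members were higher at day 12 in all 3, against 20.6% of all genes, and in 6 of 10 all 3 day 12 arrays lay above all 3 day 9 arrays, against 8.93% of all genes. At an unadjusted p under 0.05, 7 of 10 were higher, against 7.22% of all genes, and all 10 fitted differences were above 0, against 50.4% of all genes. The members' median was 0.88 in hairpin 1 cells, 1.03 in hairpin 2 cells and 0.54 in control cells, and the knockdown effect was not shown to differ between days in the test given above. Stra8 in day 12 knockdown cells (7.45 and 6.94) stood on either side of its level in day 9 control cells (7.16), while Slc25a31 (-0.89 and -0.63) stood above its day 9 control level (-1.27).

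Taf7l, Brdt and Gtsf1 had a second probe each, fitted together with all 30212 probes, and both probes of a gene differed in the same direction. The second Taf7l probe differed by -0.50 ± 0.15 in the knockdown and 1.16 ± 0.14 by day, the second Brdt probe by -0.67 ± 0.18 and 0.94 ± 0.17, and the second Gtsf1 probe by -0.86 ± 0.19 and 1.28 ± 0.18. A further probe is described on the array as a Tex14 isoform and falls outside the naming rule. It read -5.39 (hairpin 1) and -5.19 (hairpin 2) at day 12, against -4.12 in control, and -5.12 (hairpin 1) and -5.55 (hairpin 2) at day 9, against -3.62 in control. This probe was lower than the control of the same day in all 4 pairs, as 17.2% of all genes were, by -1.45 ± 0.21 (adjusted p = 0.173).

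Paralogues of the members were set beside the members, and 0 of the 11 tested were called in either contrast. Their median knockdown difference was -0.10 and 4 of 11 were lower in all 4 pairs, against 17.2% of all genes. The somatic ADP/ATP carriers Slc25a4 and Slc25a5 differed by 0.12 ± 0.16 and 0.07 ± 0.14, and the BET genes Brd2 and Brd3 by 0.10 ± 0.14 and -0.31 ± 0.14. Taf7, at -0.58 ± 0.58, had an error as wide as its difference. Tex19.2, the near copy of Tex19.1 in mouse, was lower in 4 of 4 pairs (-0.62 ± 0.18) and differed by 1.11 ± 0.17 by day. Probes of near-identical copies may share signal.

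Among other genes of the germ granule and the piRNA pathway, 19 of 20 tested had a lower fitted level in the knockdown (median -0.52). Of all genes, 50.5% had a lower fitted level. In all 4 pairs 11 of the list were lower, against 17.2% of all genes, and 0 were called. The largest differences were those of Tdrd5, a Tudor-domain protein, at -1.45 ± 0.26, and Asz1 at -0.89 ± 0.33. By day, the probe of Henmt1, the methyltransferase of piRNA 3′ ends, was well above background on the 3 day 12 arrays and on 0 day 9 arrays. Its day 12 mean was at least 2.29-fold the lowest signal well above background on the day 9 arrays. It entered the test only through the day 12 arrays, so its call by day is not counted here, and 0 other genes of the list were called by day. Of 21 meiotic chromosome genes, 19 had a lower fitted level (median -0.29) and 10 were lower in all 4 pairs, against the same shares. Sycp1, a synaptonemal complex protein, was at -1.38 ± 0.31, and 0 of the list were called in either contrast.

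Genes of retinoic acid signalling and meiotic entry other than the members were split. Of 22 tested, 11 had a lower fitted level and 11 a higher one, the median was 0.02, and 0 were called. In all 4 pairs, 8 were lower than control, against 17.2% of all genes, and 3 were higher, against 16.2%. Rec8, a meiotic cohesin, was at -0.77 ± 0.17 and Sohlh2, a germ cell transcription factor, at -0.84 ± 0.22, while Aldh1a3, a retinaldehyde dehydrogenase, was at 0.98 ± 0.17. Late spermatid and sperm genes had a median of -0.03 over 22 tested, with 14 lower and 8 higher. Acrv1, a protein of the acrosome, was also well above background on the 3 day 12 arrays and on 0 day 9 arrays, at least 1.95-fold by the same bound, and its call by day is not counted for the same reason. By day, 0 other genes of that list were called.

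**Figure D4:**
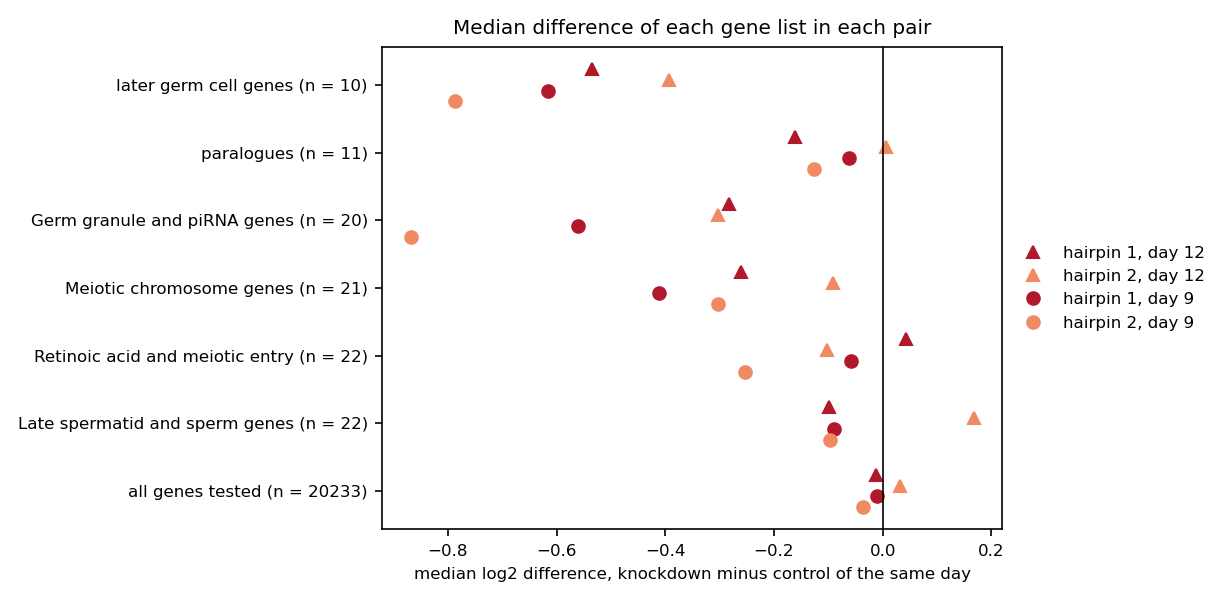
Median log2 difference, knockdown minus control of the same day, of each gene list in each of the 4 pairs (triangles day 12, circles day 9; dark red hairpin 1, orange hairpin 2). The 10 members lie between -0.79 and -0.39, the germ granule list reaches -0.87, and all genes tested lie near 0.

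Markers of some other cell types differed with the knockdown as well, with 0 of them called. Of 9 endoderm markers tested 8 had a higher fitted level (median 0.92, 6 higher in all 4 pairs, against 16.2% of all genes). The summed level of the endoderm markers was 2.11 to 2.88 on knockdown arrays and 1.27 to 1.35 on control arrays. Cer1, included in these counts, was well above background on 2 knockdown arrays and 0 control arrays. It entered the test only through the knockdown arrays, so its higher level is no result of its own. The same holds for the fibroblast marker Lox, well above background on 3 knockdown arrays and 0 control arrays. With Lox counted, all 8 fibroblast markers had a higher fitted level (median 1.15, 5 higher in all 4 pairs). Their summed level was 3.38 (hairpin 1) and 7.12 (hairpin 2) at day 12, against 2.05 in control, and 5.51 (hairpin 1) and 7.997 (hairpin 2) at day 9, against 5.40 in control, so each knockdown array was above the control of its own day. Neural markers summed to 4.39 to 5.54 on knockdown arrays and 3.11 to 3.48 on control arrays. Of the 5 neural markers 4 had a higher fitted level, but only Stmn2 (1.60 ± 0.14, adjusted p = 0.091) was higher in all 4 pairs, and the list's median at day 12 was -0.027 (hairpin 1) and -0.015 (hairpin 2). Pluripotency markers, 7 of 8 with a higher fitted level and 5 higher in all 4 pairs, summed to 128 to 147 on knockdown arrays and 107 to 119 on control arrays. Sertoli and gonadal markers summed to 0.525 to 0.728 on knockdown arrays and 0.541 to 0.648 on control arrays, and blood markers to 0.0616 to 0.0686 on knockdown arrays and 0.0529 to 0.0649 on control arrays. No marker tested was at 0, and Ttr, Hba-x and Ptprc did not pass the filter on dim probes. The part of these markers in the lower member levels was not tested.

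The genes whose pattern over the 6 arrays was most like that of Ddx4 and Stra8 were looked up among 3653 genes with a range of at least 1 log2 unit. For Ddx4 the nearest were the unnamed transcripts AK048657, NAP028105-1 and AK051847, all with Pearson's r = 0.98. For Stra8 they were 1700042G07Rik, Cck and Tex12 (r = 0.98 each), Tex12 being a synaptonemal complex protein and Cck the gene of the peptide hormone cholecystokinin. These are descriptions over 6 arrays that share a slide per day.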

How the data were processed

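Total RNA of 6 samples was hybridised to Agilent 1-colour arrays. Per the file headers, the deposited scanner files hold spot intensity values from Feature Extraction 9.1, background-subtracted and not normalized between arrays. The authors' deposited table holds a ratio, the background-subtracted signal over 1 constant per array; all 41529 entries matched exactly 1 spot at a tolerance of 2e-06. A deposited quality score per spot served only for this matching.

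Processed intensities were taken to log2 and the 75th percentile of each array set to 0. The filter kept the 30212 probes that 2 or more arrays showed well above background, and the brightest probe stood for each gene (20233 genes). Linear models came from limma 3.58.1 (R 4.3.3), with two-sided tests and Benjamini-Hochberg adjustment over all genes. Knockdown or control, with both hairpins pooled as knockdown, and day gave the knockdown and day contrasts. The 4 groups of knockdown or control by day gave the effect within a day. There, the lone control array is assumed to vary like the hairpin pairs. Day with both hairpins as separate terms gave the hairpin contrast. The number of arrays limits the precision. Same-vector arrays deviated together from their day's mean (r = 0.37, 0.53 and 0.25 across genes; different vectors -0.33 to -0.02), so the vector, which the labels name on both days, was also fitted as a block. Scripts were tested on simulated data.

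The members, gene lists, tests and alternatives were chosen with earlier results of these data known. Named genes were all members and paralogues, and up to 4 genes of largest difference per list and contrast, of which the text gives some; 1 paralogue is not reported here. Gene names and promoters came from RefSeq tables for GRCm38.p6.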

Additional observations from a re-analysis of the deposited data

How the results depend on the processing

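Of 560 values for single members under the alternatives (the knockdown, day and within-day contrasts), 558 kept their direction, though many could not change. The 2 exceptions were Ddx4, whose knockdown difference was 0.089 without the day 9 control (range -0.73 to 0.089 with 1 array left out) and whose day 12 difference was -0.033 without hairpin 1 of day 12 (range -0.033 to 0.21). With normexp the Brdt differences shrank to -0.27 (knockdown), 0.38 (day) and -0.079 (within day 9), and within day 9 Slc25a31 was at -0.90 and Stk31 at -0.55. Without the day 9 control the knockdown difference was -0.49 for Stra8 and -0.22 for Tex101. The strict filter, no filter, the trended prior and the vector blocks left the members' differences as they were, so no direction could change there. Leaving out an array of the other day likewise does not alter a within-day difference.

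Counts of called genes were unstable. For the knockdown the 0 genes became 8 with the strict filter, 2 with normexp or a trended robust prior, 1 when probes were averaged, 20 with the vector as a fixed replicate block and 0 to 1 with 1 array left out; the members' median was -0.75 without the day 12 control and -0.50 without the day 9 control, the ends of its range. For day 12 against day 9 the 30 genes became 1 with normexp, 0 with no filter, 321 with the fixed block and 0 to 18 with 1 array left out. The 1 member called became 0 with normexp, quantile normalization, no filter or any array left out, 2 with the strict filter, the trended prior or the random replicate block, and 3 with the fixed block, and the members' median was 0.67 with normexp. Adjusted p of Slc25a31 by day ran from 0.0163 to 0.262. Without the day 9 control, all 3 day 12 arrays lay above the remaining day 9 arrays in 10 members, against 14.8% of all genes. With every array kept it was 6 members, against 8.93% of all genes, and separation is easier with fewer day 9 arrays.

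Within day 9, the 1 gene called became 0 with quantile normalization or the strict filter, 290 with the fixed block, which called 1 member, and 0 to 1 with 1 array left out. Within day 12 it became 2 with normexp, 0 with the authors' table or the mean of probes, 288 with the fixed block and 0 to 1 with 1 array left out. For the difference between days the members' median was 0.025 with normexp, and the 0 genes became 2 with the trended prior and 52 with the fixed block. For hairpin 2 against hairpin 1 the 2 genes became 105 with normexp, 1 with quantile normalization, 42 with the strict filter, 0 with no filter, 61 with the trended prior and 0 to 785 with 1 array left out, and the members' median was 0.028 without hairpin 1 of day 9, and -0.18 to 0.051 with 1 array left out, the highest being without hairpin 2 of day 9. The cause of these changes was not tested.

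The random replicate block could not be estimated for the fits by day. The fixed block was chosen after seeing the data, and its error leaves out how far the hairpins differ. With 6 arrays and 1 control a day, a small difference was not detectable, and values of probes below background are bounds only.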
